A study of Mus musculus with 16 samples.

Results

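Pdx1, Mafa, Nkx6-1, Nkx2-2, Neurod1, Pax6, Isl1, Rfx6, Mnx1 and Insm1, the transcription factors that define β cell identity, were followed through RNA-seq of whole mouse pancreas. They were taken by symbol, and the 10 genes make up 10 of the 24411 gene symbols in the count table. All 10 passed the filter on low counts, which left 13660 genes for testing. The libraries came from 16 male C57BL6/J mice aged 12 weeks, 1 library per mouse. The WT group (n = 5) drank control water. The leptin-deficient Lep(ob/ob) group (n = 7) carried the same strain label and drank control water. The CCK receptor inhibitor (CCKRi) group (n = 4) was also Lep(ob/ob) and received a CCK receptor antagonist in the drinking water for 6 weeks from 6 weeks of age, as proglumide at 0.1 mg/ml (2 mice) or lorglumide at 0.05 mg/ml (2 mice). No WT mouse received an antagonist. The labels describe the WT mice as bred in house and the Lep(ob/ob) mice as purchased, whereas the study's methods describe both as purchased, so whether source differed with genotype is not settled by these sources.

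Islet β cells are a small part of the pancreas and are defined by a shared set of transcription factors that together turn on the insulin genes and keep the programmes of the other islet cell types off. Pdx1, Nkx6-1, Nkx2-2 and Mnx1 act from the pancreatic bud onwards, Neurod1, Insm1, Pax6, Isl1 and Rfx6 act in the endocrine lineage and are shared with other islet cells, and Mafa marks mature β cells. In whole-pancreas RNA these transcripts are diluted in acinar RNA. Their levels were therefore read both as normalised read counts and relative to Ins2, the main mouse insulin gene, which stood for islet content. Fewer β cells and less RNA per β cell cannot be told apart in bulk tissue. Ins2 may itself change per β cell, and the study reports falling Ins1 and Ins2 along its inferred obesity trajectory of β cells. A change relative to Ins2 is therefore not by itself a change per β cell.

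Promoter sequences are shown for 5 members because these 5 differ in how they moved between groups and in the short motifs they carry. The windows are RefSeq sequences of GRCm38.p6, each 300 bases long, from 250 bases before to 50 after an annotated start. They lie at chr5:147269847-147270146 on the plus strand for Pdx1, chr2:147186353-147186652 on the minus strand for Nkx2-2, chr10:51685268-51685567 on the plus strand for Rfx6, chr13:116309639-116309938 on the minus strand for Isl1 and chr5:101664662-101664961 on the minus strand for Nkx6-1. Capitals mark matches to CANNTG, the E-box letters bound by basic helix-loop-helix factors such as Neurod1, and to TAAT, the core letters of many homeodomain factors, on either strand.
Pdx1: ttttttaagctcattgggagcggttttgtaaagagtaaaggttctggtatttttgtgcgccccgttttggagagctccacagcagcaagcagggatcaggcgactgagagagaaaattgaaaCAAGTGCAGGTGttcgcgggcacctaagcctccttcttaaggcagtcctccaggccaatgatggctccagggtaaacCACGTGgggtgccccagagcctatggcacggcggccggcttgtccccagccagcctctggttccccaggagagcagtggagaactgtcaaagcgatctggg
Nkx2-2: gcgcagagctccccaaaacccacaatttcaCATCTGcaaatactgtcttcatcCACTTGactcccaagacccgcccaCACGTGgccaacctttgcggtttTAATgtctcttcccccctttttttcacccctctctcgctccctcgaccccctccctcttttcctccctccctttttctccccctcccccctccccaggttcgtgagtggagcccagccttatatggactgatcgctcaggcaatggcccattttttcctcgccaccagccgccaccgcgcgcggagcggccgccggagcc
Rfx6: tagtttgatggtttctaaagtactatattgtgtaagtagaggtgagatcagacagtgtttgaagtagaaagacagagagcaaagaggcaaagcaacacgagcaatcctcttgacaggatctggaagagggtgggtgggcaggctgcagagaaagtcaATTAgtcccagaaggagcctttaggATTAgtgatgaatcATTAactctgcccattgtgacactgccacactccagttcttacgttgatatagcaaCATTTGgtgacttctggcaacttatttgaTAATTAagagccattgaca
Isl1: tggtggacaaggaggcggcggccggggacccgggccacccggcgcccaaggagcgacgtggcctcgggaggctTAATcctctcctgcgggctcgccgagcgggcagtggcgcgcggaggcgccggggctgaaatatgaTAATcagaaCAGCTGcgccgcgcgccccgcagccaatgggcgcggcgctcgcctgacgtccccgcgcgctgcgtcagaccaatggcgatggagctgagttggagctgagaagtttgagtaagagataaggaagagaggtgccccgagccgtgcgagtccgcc
Nkx6-1: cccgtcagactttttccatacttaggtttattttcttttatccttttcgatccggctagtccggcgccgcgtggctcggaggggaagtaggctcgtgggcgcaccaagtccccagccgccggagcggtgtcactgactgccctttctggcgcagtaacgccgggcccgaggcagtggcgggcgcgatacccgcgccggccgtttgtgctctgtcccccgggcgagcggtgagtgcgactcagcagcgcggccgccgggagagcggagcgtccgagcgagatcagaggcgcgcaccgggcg
The Pdx1 window held 3 E-boxes, the palindrome CACGTG among them, and no homeodomain match. The Nkx2-2 window also held 3 E-boxes, the same palindrome among them, with 1 homeodomain match. The Rfx6 window was the most AT-rich of these 5, at 42.3% GC, with 1 E-box and 5 homeodomain matches. The Isl1 window (69.0% GC) held 1 E-box and 2 homeodomain matches, and the Nkx6-1 window (67.3% GC) held neither. The E-box letters were in 72.3% of 32851 promoter windows of this length, the homeodomain letters in 58.0% and the palindrome in 7.15%. The core letters of the Maf response element (TGCTGAC) were in 4.67% of all windows and in no member's window. These matches describe letters in a window, and their part in the measured levels was not tested. RefSeq windows were matched for 8 of the 10 members.

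Library depth ranged from 9.87 M to 34.5 M counts (M, 1e6) and differed by batch, the code that the labels give each library. Batch A comprised 7 mice (3 WT, 4 Lep(ob/ob)) at 19.2 M to 34.5 M counts, and the 9 mice of batch B (2 WT, 3 Lep(ob/ob) and the whole CCKRi group) had 9.87 M to 15.9 M. Final body weight was 27.7 ± 3.22 g in WT (SD, n = 5), 51.0 ± 1.98 g in Lep(ob/ob) (n = 7) and 54.8 ± 2.22 g in CCKRi mice (n = 4). Of the 16 libraries, 4 stood apart in non-endocrine markers. The summed adipocyte markers were 5527, 5817, 15999 and 10055 normalised counts in mice 417, 461, 463 and 69, against 590 to 3080 in the other 12, and summed macrophage markers were 3667 to 11542 in these 4 mice against 892 to 3018. Counts of called members without these 4 libraries are given for each comparison. All 4 came from obese mice. Mice 461 (28031) and 463 (22738) had the lowest Ins2 counts of the Lep(ob/ob) group and mouse 69 (9087) the lowest of the CCKRi group. Mouse 417 (88896) was not low. Leaving these mice out therefore also removed the obese mice lowest in Ins2. The summed acinar markers differed by batch, with batch A ranges of 5787433 to 6499466 (WT) and 3952052 to 5812263 (Lep(ob/ob)), batch B ranges of 1832277 to 3183862 (WT) and 1551489 to 3713885 (Lep(ob/ob)), and CCKRi mice at 883163 to 2681356, which overlapped both other groups of batch B. The summed β cell markers (Ins1, Ins2, Iapp, G6pc2, Slc2a2 and Ucn3) ran from 18811 to 24142 in WT, from 41716 to 208082 in Lep(ob/ob) and from 24324 to 230215 in CCKRi mice.

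Members differed in level by more than an order of magnitude within WT pancreas. Per kb of exon, Pdx1 was highest at 35.9 ± 6.3 normalised counts per kb (SD, n = 5), followed by Nkx2-2 at 31.7 ± 10.4. Nkx6-1 (15.9 ± 5.01), Isl1 (13.7 ± 5.37), Neurod1 (12.8 ± 3.61), Mafa (10.6 ± 4.61), Insm1 (9.99 ± 4.24) and Rfx6 (7.53 ± 4.26) came next, then Pax6 (5.43 ± 1.91) and Mnx1 (1.05 ± 0.775). Among neighbours in this order, the WT ranges separated for Nkx2-2 over Nkx6-1 and for Pax6 over Mnx1, and overlapped for every other neighbouring pair. In Lep(ob/ob) pancreas Pdx1 was still first (58.4 ± 27.9, n = 7), Nkx6-1 was at 54.4 ± 28.6 and Nkx2-2 at 53.5 ± 19.0. Insm1 moved up to 42.5 ± 28.1 and Mafa stood next to last at 17.1 ± 11.3. In CCKRi pancreas Nkx2-2 (63.0 ± 24.8, n = 4) and Rfx6 (59.9 ± 34.9) came first, Mafa (5.8 ± 4.78) was next to last and Mnx1 (4.51 ± 4.07) last. All neighbours in the Lep(ob/ob) and CCKRi orders overlapped in range. Within mice, Mafa was above Mnx1 in 7 of 7 Lep(ob/ob) mice. Nkx6-1 was above Neurod1, and Pax6 above Mafa, in 4 of 4 CCKRi mice. No other neighbouring pair of these groups kept its order in every mouse.

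**Figure D1:**
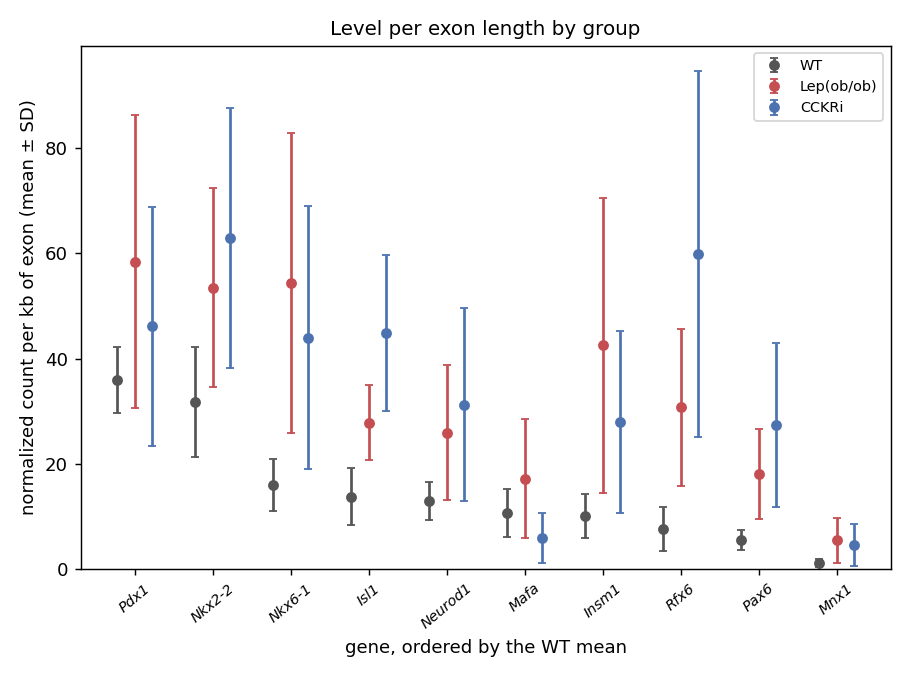
Normalised counts per kb of exon (linear axis from 0) for the 10 transcription factors, ordered by the WT mean, as group means with SD bars (grey WT, n = 5; red Lep(ob/ob), n = 7; blue CCKRi, n = 4). Pdx1 leads in WT at a mean of 35.9 per kb and Mnx1 is last in all 3 groups.

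The first comparison asked how the levels of these factors differed between obese Lep(ob/ob) and WT pancreas. Of the 10 members, 5 rose, namely Insm1, Nkx6-1, Pax6, Isl1 and Rfx6, and none fell, at an adjusted p under 0.05 by edgeR's quasi-likelihood test with Benjamini-Hochberg adjustment and batch as a covariate. Of all genes tested, 5.93% were called higher. The median log2 fold change of the 10 members was 1.34, against −0.018 over all genes tested. Ins2 rose with them, by a log2 fold change of 2.49 ± 0.475 (SE, adjusted p = 0.00327, 5.62-fold), which is more than the fitted change of any member.

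**Figure D2:**
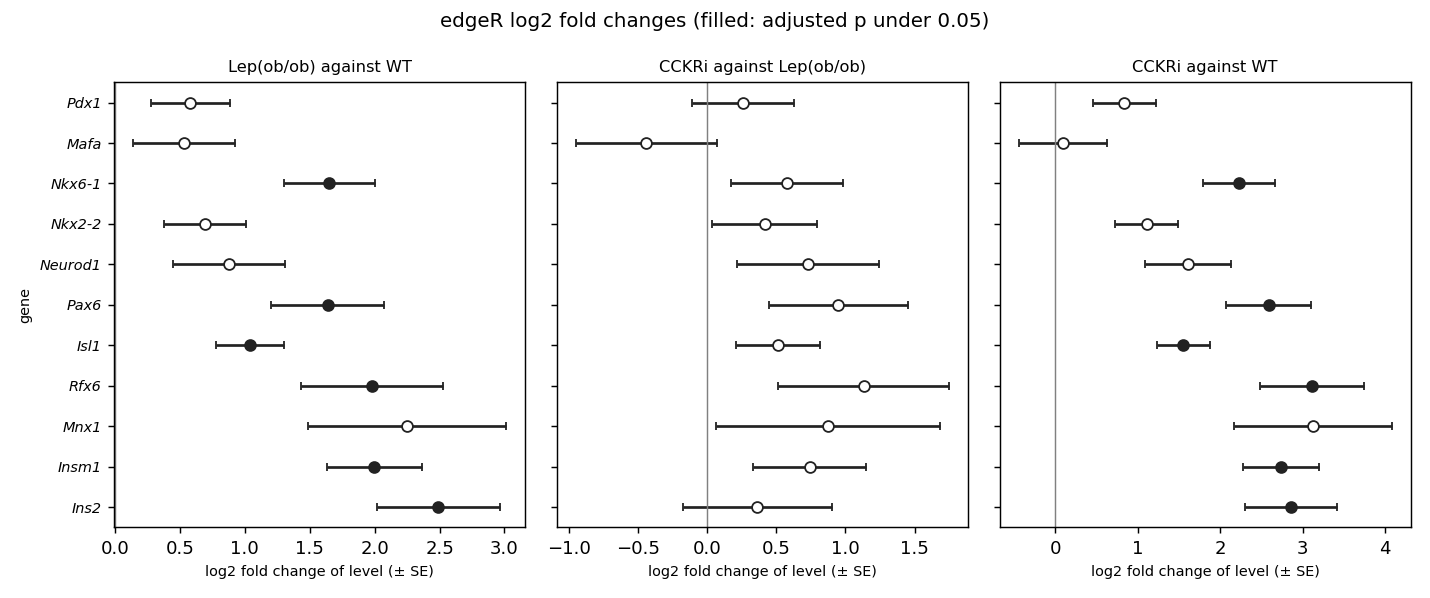
Fitted log2 fold changes of the 10 transcription factors and Ins2 with their standard errors as bars, 1 panel for each of the 3 comparisons, with filled points at an adjusted p under 0.05. In Lep(ob/ob) against WT the levels lie between 0.53 (Mafa) and 2.25 (Mnx1), below the 2.49 of Ins2.

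Nkx6-1 (chromosome 5, 101658139 to 101664996 in GRCm38, 3 exon blocks) keeps the β cell programme apart from that of α cells. It stood at 43.1, 51.8 and 74.9 normalised counts in the WT mice of batch A and at 47.0 and 32.4 in those of batch B. In Lep(ob/ob) pancreas the lowest, median and highest mice had 54.4, 207 and 271. The groups overlapped through 2 Lep(ob/ob) mice of batch B (73.1 and 54.4), which were still above both WT mice of their batch. Nkx6-1 rose 3.14-fold (log2 fold change 1.65 ± 0.35, SE, edgeR adjusted p = 0.00682).

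Pdx1 (chromosome 5, 147269959 to 147275848, 2 exon blocks) is needed for the pancreas to form and activates the insulin genes in adult β cells. WT mice had 67.3, 82.4 and 87.9 normalised counts in batch A and 90.8 and 59.5 in batch B. Lep(ob/ob) mice had 44.5, 140 and 207 as lowest, median and highest. All 4 batch A values (140 to 207) were above the WT mice, while the batch B values (82.6, 44.5 and 75.5) lay across and under the WT range. The log2 fold change of 0.58 ± 0.302 did not pass (edgeR adjusted p = 0.26).

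Nkx2-2 (chromosome 2, 147177546 to 147194243, 4 exon blocks) is a homeodomain factor of the endocrine lineage that represses non-β programmes. It measured 71.3, 69.4, 82.9, 89.2 and 143 normalised counts in the 5 WT mice and 66.4, 170 and 218 as lowest, median and highest in Lep(ob/ob). All 5 WT values lay within the Lep(ob/ob) range, and WT mouse 59 had the highest of them (143). The log2 fold change was 0.69 ± 0.315 (edgeR adjusted p = 0.188). Its locus overlaps the antisense Nkx2-2os, at 3 to 25 raw counts per library, and the libraries were made with a strand-marking kit, but whether counting used strand is not given in the sources used here.

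Mnx1 (chromosome 5, 29473034 to 29478470, 3 exon blocks), a homeodomain factor of the pancreatic bud and the β cell, was the weakest member, with 1 to 3 raw counts in each WT library. Its raw counts in Lep(ob/ob) were 21, 15, 35 and 12 in batch A and 4, 2 and 5 in batch B. It passed the filter through the obese mice. Summed over mice and scaled by library, the ratio of Lep(ob/ob) to WT was 5.55, with an exact 95% counting interval of 2.8 to 12.5 that covers counting error only. The fitted log2 fold change of 2.25 ± 0.764 did not pass (edgeR adjusted p = 0.0781). DESeq2 called it higher with batch (2.19, adjusted p = 0.043) and without (2.41, 0.0401), beside the same 5 members as edgeR, against 12.4% and 9.07% of all genes. Because Mnx1 entered through the obese mice, these calls are not taken as support.

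Insm1 (chromosome 2, 146221921 to 146225020, 1 exon block), a zinc finger repressor that drives endocrine differentiation, had the smallest adjusted p of the members. It was at 39, 38.8 and 43.0 normalised counts in WT of batch A, at 21.1 and 13 in WT of batch B, and at 29, 131 and 247 as lowest, median and highest in Lep(ob/ob). Every Lep(ob/ob) mouse was above every WT mouse of its own batch, although mouse 463 (29) was under the batch A WT mice. Insm1 rose 3.99-fold (log2 fold change 2.00 ± 0.366, edgeR adjusted p = 0.00242).

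Neurod1 (chromosome 2, 79452521 to 79456751, 2 exon blocks), the basic helix-loop-helix activator that binds the E-box of the insulin promoter, was less clear. WT mice had 22.9, 25.9, 41, 38.9 and 45.4 normalised counts, and Lep(ob/ob) mice had 16.9, 77.5 and 118 as lowest, median and highest. The lowest value of all 12 mice was in Lep(ob/ob) mouse 463. The log2 fold change was 0.88 ± 0.432 (edgeR adjusted p = 0.231). Its locus overlaps Cerkl on the same strand, at 2 to 40 raw counts.

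Pax6 (chromosome 2, 105668900 to 105697364, 16 exon blocks), a paired-domain factor of all islet endocrine cells, stood at 49.8, 51.8, 50, 102 and 63.8 normalised counts in WT and at 82.6, 217 and 350 as lowest, median and highest in Lep(ob/ob). WT mouse 58 (102) overlapped with 2 Lep(ob/ob) mice of batch B (82.6 and 84.0). Pax6 rose 3.12-fold (log2 fold change 1.64 ± 0.436, edgeR adjusted p = 0.0259), a call lost in 3 of 16 fits that left out 1 mouse, those without WT mouse 5489, 5492 or 5494 (adjusted p 0.0754 to 0.0858).

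Isl1 (chromosome 13, 116298281 to 116309689, 7 exon blocks), a LIM-homeodomain factor of all islet cell types that is also made by peripheral neurons, had 28.3, 40.0 and 51.0 normalised counts in WT of batch A and 74.6 and 76.8 in WT of batch B. Lep(ob/ob) mice had 70.4, 117 and 150 as lowest, median and highest, and only mouse 461 (70.4) fell within the WT range. Isl1 rose 2.06-fold (log2 fold change 1.04 ± 0.262, edgeR adjusted p = 0.0188), a call lost in 2 of 16 fits, those without WT mouse 5489 or 5492 (adjusted p 0.0609 and 0.0548). The summed neuron markers lay between 2.71 and 59.1 normalised counts across the libraries, and of the 5 listed 1 was tested, Th, which was called higher (2.17). The part of nerve RNA in the Isl1 value was not tested.

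Rfx6 (chromosome 10, 51677756 to 51730432, 20 exon blocks), a winged-helix factor needed for islet cell differentiation and shared with gut endocrine cells, showed the widest spread of the called members. WT mice had 21.5, 11.8 and 21.0 normalised counts in batch A and 50.3 and 46.5 in batch B, and Lep(ob/ob) mice had 24.4, 149 and 173 as lowest, median and highest. Mice 461 (24.4) and 463 (50.1) lay within the WT range, and the other 5 were at 147 or above. Rfx6 rose 3.95-fold (log2 fold change 1.98 ± 0.55, edgeR adjusted p = 0.032). This call was lost in 6 of 16 fits that left out 1 mouse (adjusted p 0.051 to 0.101), without WT mouse 5489, 5492 or 5494 or Lep(ob/ob) mouse 441, 417 or 464.

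Mafa (chromosome 15, 75745490 to 75748228, 1 exon block), the basic leucine zipper activator of mature β cells, was the member with the smallest fitted change. WT mice had 45.8, 20.0, 39, 22.7 and 17.3 normalised counts and Lep(ob/ob) mice 12.7, 41.7 and 88.8 as lowest, median and highest. The groups overlapped within both batches, since 1 Lep(ob/ob) mouse of batch A (41.7) was below a WT mouse of that batch (45.8). The log2 fold change was 0.53 ± 0.394 (edgeR adjusted p = 0.442).

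**Figure D3:**
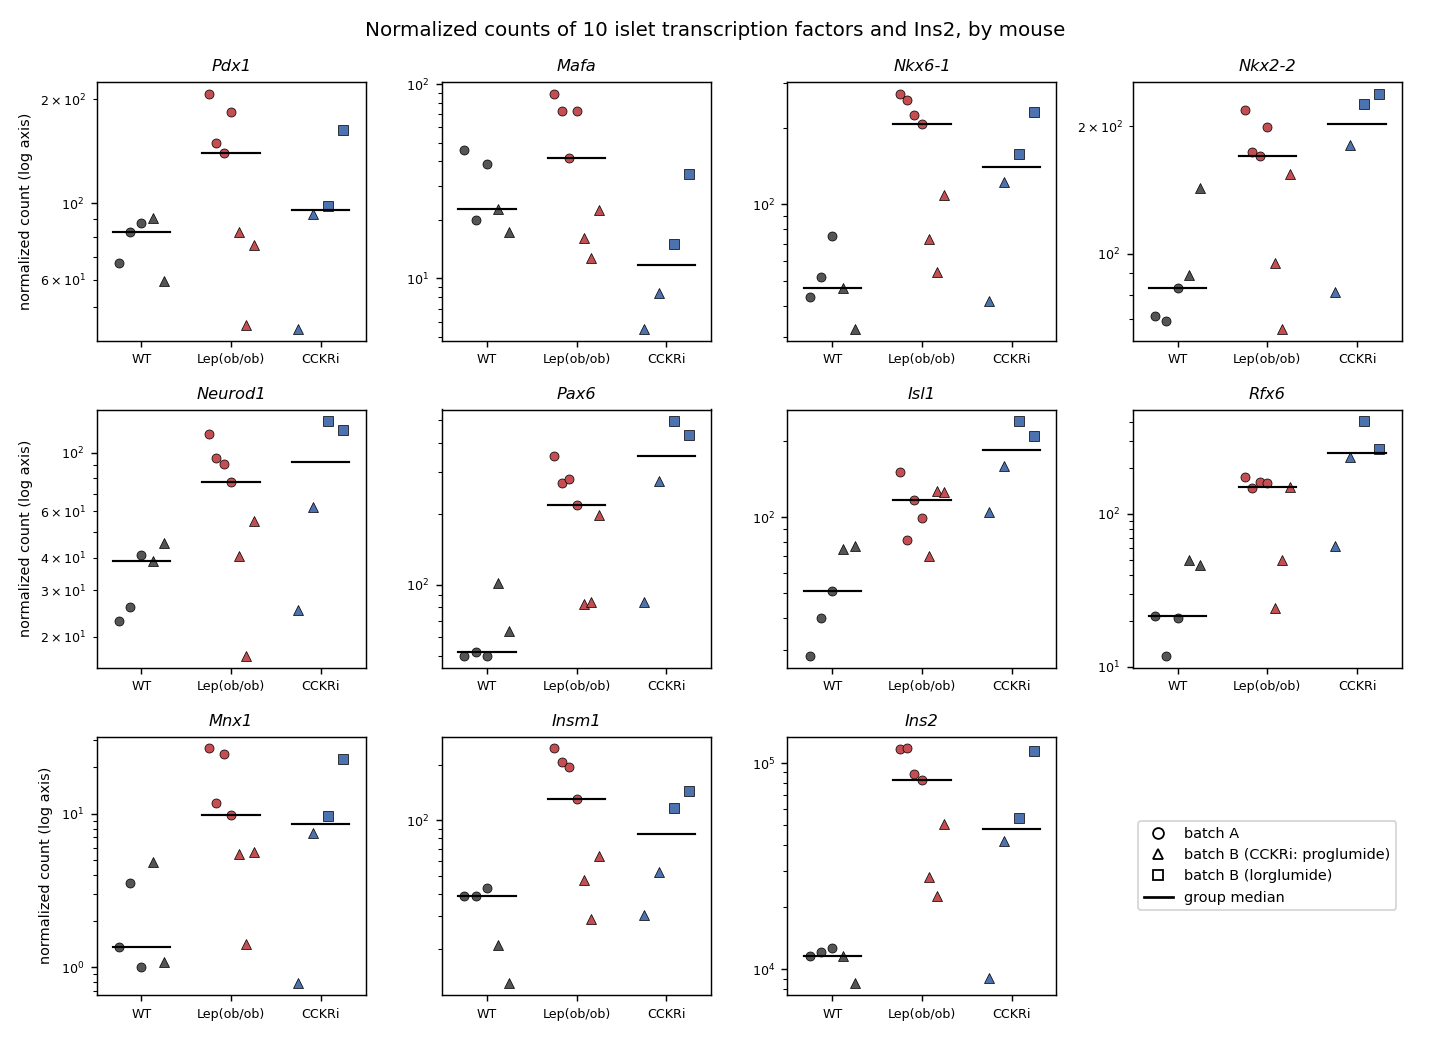
Normalised read counts (log axis) of the 10 transcription factors and Ins2 in each of the 16 mice, by group, with group medians as black bars (circles batch A, triangles batch B, squares lorglumide). The red triangles of Lep(ob/ob) batch B lie below the red circles of batch A for most members, with Nkx6-1 at 54.4 to 109 against 207 to 271.

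The difference between Lep(ob/ob) and WT was larger in batch A than in batch B for each member. In batch A, 8 members besides Mnx1 were higher in every Lep(ob/ob) mouse than in every WT mouse, against 11.2% of all genes. Mnx1 also separated but entered through the obese mice, and Mafa did not separate. In batch B only Nkx6-1 and Insm1 separated in this way (2 of 10), against 17.5% of all genes. Over all mice no member separated completely (0 of 10, against 3.06% of all genes), whereas Ins2 did. Fitted in batch A alone, 8 members besides Mnx1 rose, with log2 fold changes from 1.13 (Pdx1) to 3.18 (Rfx6), Mnx1 was also called but has WT counts of 1 to 3, and Mafa was at 1.01 (edgeR adjusted p = 0.0945), against 8.68% of all genes called in either direction. Fitted in batch B alone, 0 of 10 passed and 0 of 10 had an unadjusted p under 0.05 with edgeR, which was the one tool run on that batch and called 8 of 14045 genes (0.057%). The batch B values were −0.19 for Pdx1, −0.26 for Mafa, −0.19 for Nkx2-2, −0.23 for Neurod1, 0.53 for Pax6, 0.60 for Rfx6, 0.96 for Nkx6-1 and 1.44 for Insm1, with Ins2 at 1.73.

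Tested as a genotype-by-batch interaction, the difference in log2 fold change (batch B minus batch A) was −2.55 for Rfx6, −1.94 for Pax6, −1.90 for Neurod1, −1.55 for Nkx2-2, −1.30 for Pdx1 and −0.85 for Insm1. With Benjamini-Hochberg adjustment over 13660 genes, 0 of 10 members and 0 genes passed in edgeR, the one tool run for this term, while 8 of 10 members and 1611 genes had an unadjusted p under 0.05. Batch also moved with depth and with the libraries high in adipocyte markers. Of these libraries, those of mice 461 and 463 were the lowest of the Lep(ob/ob) group in Ins2 (28031 and 22738). Without mice 417, 461, 463 and 69, an alternative in the same fit, 8 members besides Mnx1 rose in Lep(ob/ob) pancreas, and Mnx1, which entered through its counts in obese mice, was also called, with Mafa at 0.94 (edgeR adjusted p = 0.0688) and Ins2 at 2.90, against 12.3% of all genes called in either direction.

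The second reading took each member relative to Ins2 in the same library. Ins2 was at 11611, 12111, 12665, 11522 and 8549 normalised counts in WT and at 22738, 82910 and 117761 as lowest, median and highest in Lep(ob/ob), with no overlap. Since Ins2 rose, most genes fell relative to it. With log Ins2 counts as the offset, 93.1% of all genes tested were called lower in Lep(ob/ob), with a median log2 change of −2.49. Of the members 5 of 10 were called lower, namely Mafa, Pdx1, Nkx2-2, Neurod1 and Isl1, and none higher, with a median of −1.12. The remaining 5, Nkx6-1, Pax6, Insm1, Rfx6 and Mnx1, did not pass in this edgeR fit. Nkx6-1 and Pax6 were also called lower, giving 7 of 10, by DESeq2 with batch (89.6% of all genes called) and without (82%), by edgeR with only these 2 groups in the fit (96.1%), and with Iapp (94.7%) or 7 pan-endocrine genes (96.5%) in place of Ins2. The share of members called lower was thus under the share of all genes.

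Mafa changed by −2.02 ± 0.525 relative to Ins2 (SE, edgeR adjusted p = 0.000833). Per 1000 Ins2 counts, Mafa was at 3.94, 1.65, 3.08, 1.97 and 2.02 in WT and at 0.445, 0.58 and 0.876 as lowest, median and highest in Lep(ob/ob). All 7 Lep(ob/ob) mice, in both batches, were below all 5 WT mice. Pdx1 changed by −1.88 ± 0.488 (edgeR adjusted p = 0.000827), from 5.80, 6.80, 6.94, 7.88 and 6.96 per 1000 Ins2 counts in WT to 1.26, 1.77 and 2.95 as lowest, median and highest in Lep(ob/ob). The Pdx1 ranges were also apart in both batches.

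Nkx2-2 changed by −1.80 ± 0.485 relative to Ins2 (edgeR adjusted p = 0.00112), and the 5 WT mice (5.73 to 16.7 per 1000 Ins2 counts) were above all Lep(ob/ob) mice (1.47 to 3.38). Neurod1 changed by −1.63 ± 0.504 (edgeR adjusted p = 0.00346), from 1.97 to 5.31 in WT to 0.745 to 1.45 in Lep(ob/ob). Isl1 changed by −1.37 ± 0.518 (edgeR adjusted p = 0.014), but its ranges overlapped, at 2.43 to 8.98 in WT and 0.688 to 5.59 in Lep(ob/ob). Lep(ob/ob) mouse 463 held the 5.59. The Isl1 call was lost by edgeR without batch, which called the other 4 (83.6% of all genes called).

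Nkx6-1 had the narrowest spread relative to Ins2 of the 10 members within group and batch. Its ratio was 3.71, 4.27, 5.92, 4.08 and 3.79 per 1000 Ins2 counts in WT and 2.38 ± 0.173 in Lep(ob/ob) (SD, n = 7, range 2.16 to 2.61). The ranges were apart, while the fitted change of −0.87 ± 0.472 did not pass (edgeR adjusted p = 0.0799). Pax6 was similar, with a WT range of 3.95 to 8.87, a Lep(ob/ob) range of 2.28 to 3.91 and a fitted change of −0.85 ± 0.468 (edgeR adjusted p = 0.0818). Insm1 (−0.58 ± 0.5), Rfx6 (−0.50 ± 0.531) and Mnx1 (−0.37 ± 0.684) had edgeR adjusted p-values of 0.262, 0.365 and 0.603. Their standard errors leave room for changes of either direction, so these 3 are not shown to have kept pace with Ins2.

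An exact two-sided permutation test of the same log2 ratios, with mice reassigned within batches, gave its smallest possible p of 0.00286 (350 arrangements) for 7 of the 10 members, namely Pdx1, Mafa, Nkx6-1, Nkx2-2, Neurod1, Pax6 and Isl1, against 76.8% of all genes lower at that p. Insm1 reached p = 0.00857 with a difference of −0.62, while Mnx1 (exact p = 0.0943) and Rfx6 (exact p = 0.186) did not pass. The 8 of 10 members with an exact p under 0.05 stand against 95.3% of all genes. Over all mice, 6 of 10 members had ratios below WT in every Lep(ob/ob) mouse, against 65.8% of all genes. In batch A 8 of 10 separated, against 95.5%, and in batch B 8 of 10, against 78.5%. With Ins2 as a covariate in place of an offset, 2 members were called lower, Pdx1 at −0.83 (edgeR adjusted p = 0.0408) and Mafa at −1.44 (0.0335), against 26% of all genes called in either direction. By edgeR in batch A alone 8 of 10 members were lower relative to Ins2, against 97.6% of all genes called, and in batch B alone 0 of 10 members and 0 of 14045 genes passed, with 0 of 10 members at an unadjusted p under 0.05. Without mice 417, 461, 463 and 69, 7 of 10 members were lower relative to Ins2, against 97.4% of all genes called, so this count too is under that of all genes.

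**Figure D4:**
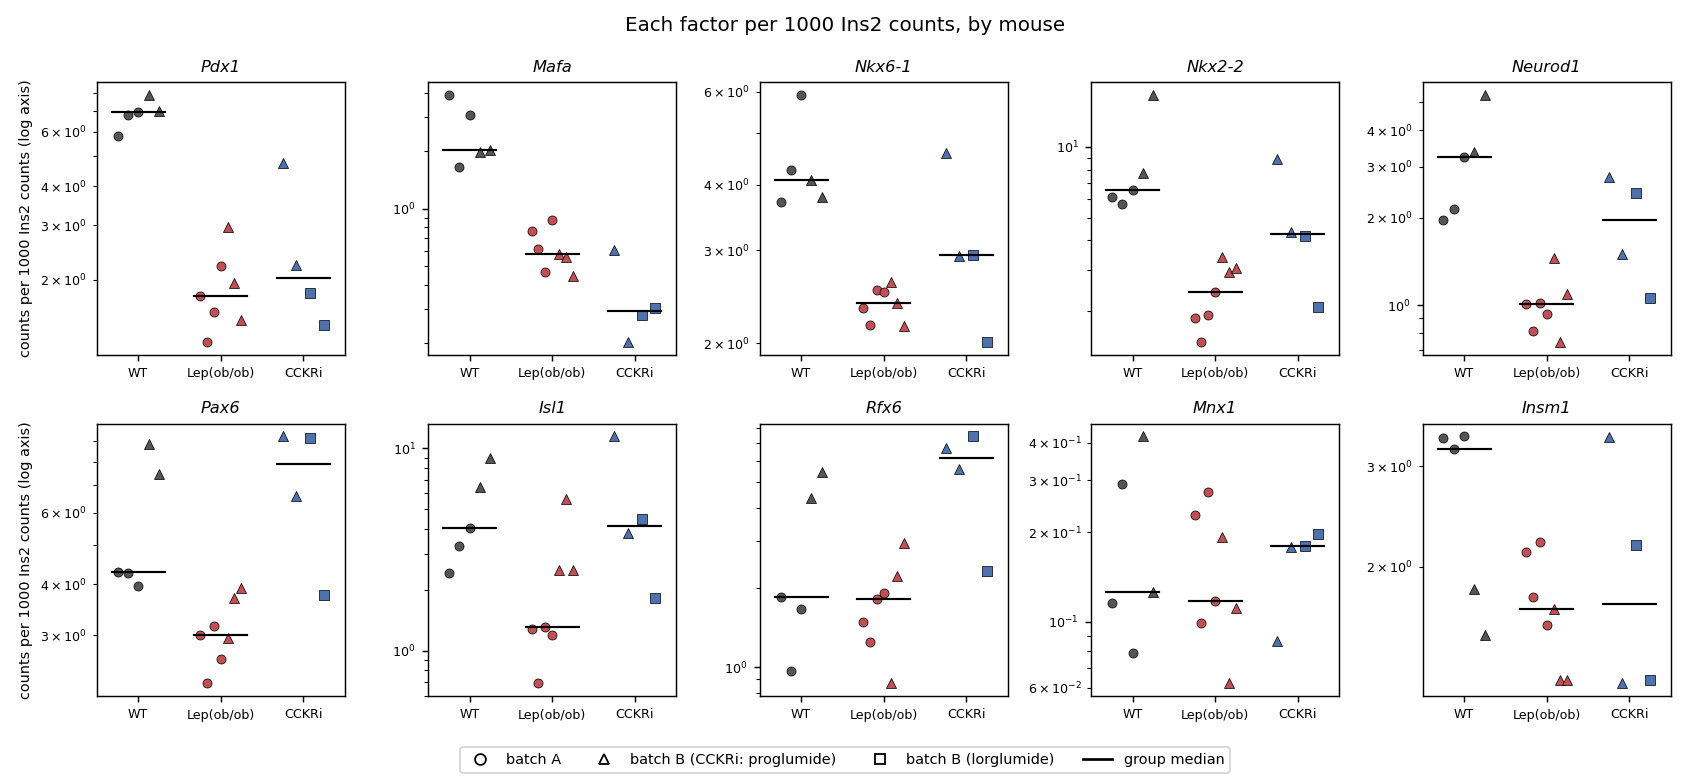
Each transcription factor per 1000 Ins2 counts (log axis) in each of the 16 mice, by group, with group medians as black bars (circles batch A, triangles batch B, squares lorglumide). For Mafa all 7 Lep(ob/ob) mice lie at or below 0.876 and all 5 WT mice at or above 1.65.

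How closely a member tracked Ins2 from mouse to mouse also differed. After removing group and batch means, the log2 levels of Nkx6-1 and Ins2 correlated at r = 0.965 over the 16 mice, Insm1 at 0.91, Pax6 at 0.909 and Pdx1 at 0.881. Rfx6 (0.768) and Isl1 (0.653) were lowest. These values describe 16 libraries, and the source of the shared variation was not tested. The SD of Nkx6-1 within group and batch was 0.63 on the log2 scale as a level and 0.31 as a ratio to Ins2, and that of Pax6 was 0.71 and 0.36. For Isl1 the spread was wider as a ratio (0.70) than as a level (0.43), and for Nkx2-2 the values were 0.53 and 0.49.

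**Figure D5:**
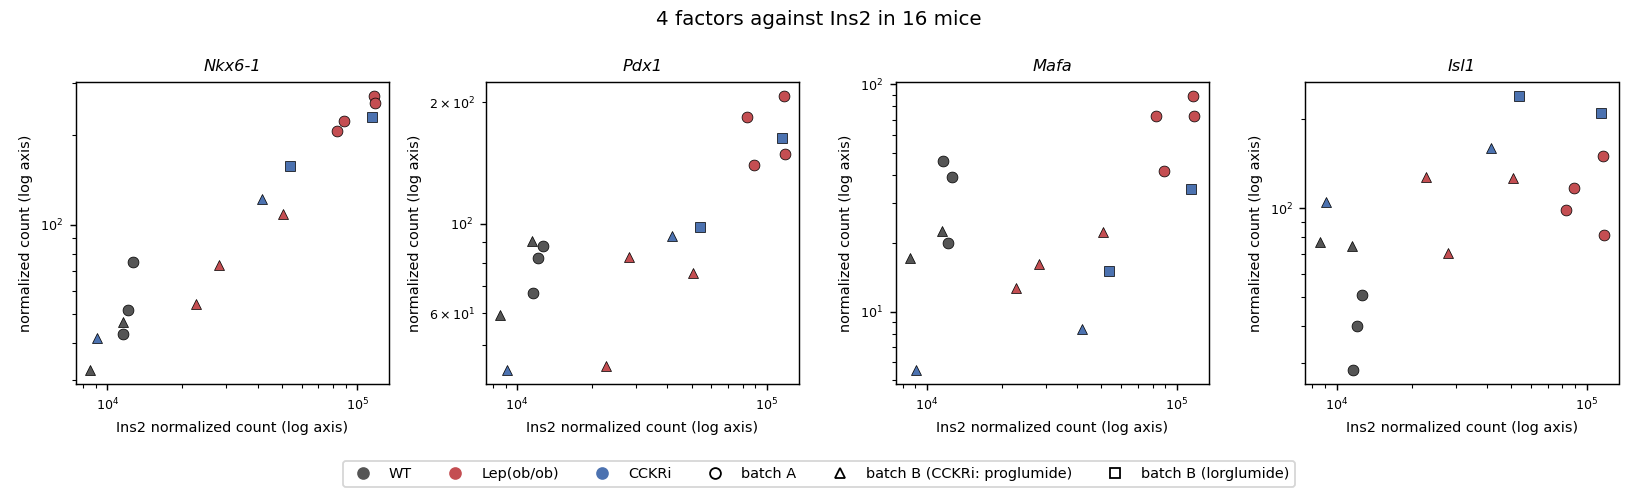
Normalised counts of Nkx6-1, Pdx1, Mafa and Isl1 against Ins2 (both axes log), 1 point per mouse (circles batch A, triangles batch B, squares lorglumide; grey WT, red Lep(ob/ob), blue CCKRi). Nkx6-1 lies closest to a line, while Mafa averages 0.615 per 1000 Ins2 counts in Lep(ob/ob) and 0.347 in CCKRi mice against 2.53 in WT.

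The second comparison asked whether CCK receptor inhibition changed these factors in Lep(ob/ob) mice. No member passed (0 of 10), against 0.0586% of all genes tested, and 0 of 10 had an unadjusted p under 0.05 by edgeR's quasi-likelihood test. DESeq2 with batch called 0 of the 8 members to which it gave an adjusted p, which Mafa and Mnx1 lacked (0.761% of all genes), and DESeq2 without batch called 1, Mafa lower, against 18.4% of all genes. Without mice 417, 461, 463 and 69 edgeR again called 0 of 10, as levels (0.0733% of all genes) and relative to Ins2 (0.0806%), with 0 of 10 at an unadjusted p under 0.05. All 10 members overlapped between the groups, both as levels and relative to Ins2. Fitted log2 fold changes ran from −0.44 ± 0.509 (SE) for Mafa to 1.13 ± 0.618 for Rfx6, with 0.95 ± 0.503 for Pax6, 0.74 ± 0.41 for Insm1, 0.26 ± 0.368 for Pdx1 and 0.36 ± 0.541 for Ins2. The edgeR adjusted p-values were 0.391 for Pax6, 0.402 for Rfx6 and 0.688 for Mafa. Fitted in batch B alone, Rfx6 was at 1.72, Pax6 at 1.44, Mafa at −0.084 and Ins2 at 0.74, and edgeR called 0 of 10 members (0.0142% of all genes), with 3 of 10 at an unadjusted p under 0.05. With only these 2 groups in the fit it called 0 of 10 (0.0224%), with 5 of 10 at an unadjusted p under 0.05. Standard errors of this size do not show that the groups were alike. Shares of all genes that overlapped, or had an unadjusted p under 0.05, are not given for this comparison. These counts of members are therefore not read as particular to them.

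The 4 CCKRi mice spanned a wide range. The proglumide mice 69 and 72 had 9087 and 41635 Ins2 counts, and the lorglumide mice 74 and 76 had 53806 and 114507. In the same order Pdx1 was at 43.3, 93.1, 98.1 and 163, Nkx6-1 at 41.7, 122, 158 and 230, and Mafa at 5.51, 8.38, 15.1 and 34.6 normalised counts. Rfx6 was at 61.4, 234, 402 and 263, and Pax6 at 84.2, 275, 493 and 430. Mouse 69 had the lowest value of the 4 for these 5 members, and its summed adipocyte markers were the highest of this group, the part of which was not tested. The 2 drugs were given at different doses, so their values stand side by side with no comparison.

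The third comparison set CCKRi-treated Lep(ob/ob) mice against WT. It shares the WT mice with the first comparison and the treated mice with the second, so its values are not independent of theirs. Again 5 of 10 members rose, against 4.22% of all genes tested called higher, and none fell. Rfx6 was 8.64-fold higher (log2 fold change 3.11 ± 0.634, edgeR adjusted p = 0.00641), Insm1 6.67-fold (2.74 ± 0.463, 0.00175), Pax6 6.02-fold (2.59 ± 0.516, 0.00566), Nkx6-1 4.69-fold (2.23 ± 0.434, 0.00489) and Isl1 2.93-fold (1.55 ± 0.319, 0.00677). Ins2 rose 7.23-fold (log2 fold change 2.86 ± 0.559, edgeR adjusted p = 0.00501), and with 1 mouse left out its log2 fold change was lowest, 2.20, without mouse 76 (edgeR adjusted p = 0.0182). Mafa was at 0.09 ± 0.537 (edgeR adjusted p = 0.959) and Pdx1 at 0.84 ± 0.377 (0.267). Only Isl1 and Rfx6 (2 of 10) were higher in all 4 treated mice than in all 5 WT mice, against 6.16% of all genes. These fitted folds use the WT mice of both batches. Their batch term is shared with the untreated Lep(ob/ob) mice, so the folds and calls also rest on that group. Fitted in batch B alone, which holds every treated mouse, the log2 fold change was 2.32 for Rfx6, 2.37 for Insm1, 1.97 for Pax6, 1.82 for Nkx6-1 and 1.24 for Isl1, and 0 of 10 members passed in edgeR (0.0926% of all genes), with 5 of 10 at an unadjusted p under 0.05. Fitted with the WT and CCKRi mice alone, 0 of 10 passed in edgeR (2.18% of all genes) and 5 of 10 had an unadjusted p under 0.05. Ins2 did not pass in either fit (2.47 in both, edgeR adjusted p = 0.327 and 0.107). Shares of all genes at an unadjusted p under 0.05 are not given for these fits. Markers of the duodenal epithelium, summed over the 6 listed, stood at 30.7, 70.8, 125 and 79.9 normalised counts in CCKRi mice 69, 72, 74 and 76, where WT mice ranged from 3.53 to 21.6 and the obese untreated mice from 7.77 to 71.0. Among the treated mice, mouse 74 was highest in both this sum and Rfx6. The 1 marker tested, Olfm4, was called higher (2.52, edgeR adjusted p = 0.0199), while Alpi was at 0 in all 16 libraries and Fabp2 and Sis in 15 each. The part of gut RNA in the Rfx6 value was not tested. Only 2 WT mice share a batch with the treated mice, and an exact permutation test within that batch cannot go below p = 0.0667.

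Relative to Ins2, Mafa (−2.65 ± 0.723, SE, edgeR adjusted p = 0.0237) and Pdx1 (−1.60 ± 0.643, 0.0374) were lower in CCKRi mice than in WT, 2 of 10 against 64.3% of all genes. The Pdx1 call was lost in 14 of 16 fits that left out 1 mouse, with adjusted p-values of 0.0513 to 0.102 in those fits, and the Mafa call in 2 of 16, without mouse 72 or 74. Mafa per 1000 Ins2 counts was 0.606, 0.201, 0.280 and 0.302 in the 4 treated mice, all below the WT minimum of 1.65. Pdx1 was at 4.76, 2.24, 1.82 and 1.43, all below the WT minimum of 5.80. No other member separated on this ratio (2 of 10, against 14.8% of all genes). In batch B alone, which holds every treated mouse, 0 of 10 passed relative to Ins2 in edgeR (0.114% of all genes). With only these groups in the fit, 0 of 10 passed (0.17%). Without the 4 libraries high in adipocyte markers, 8 members besides Mnx1 rose as levels, with Mnx1 also called, against 9.64% of all genes called in either direction, and 5 of 10 were lower relative to Ins2, against 96.3%.

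Balance between members also differed in description. Mafa counts per 100 Rfx6 counts were 212, 170 and 186 in WT of batch A and 45.2 and 37.2 in WT of batch B. In Lep(ob/ob) they were 51.5, 49.2, 25.9 and 45.9 in batch A and 66.7, 25.4 and 15.2 in batch B, and in CCKRi mice 8.97, 3.59, 3.75 and 13.1. All CCKRi mice were below every other mouse, while WT and Lep(ob/ob) overlapped only through batch B. Pdx1 counts per 100 Nkx6-1 counts ran from 117 to 193 in WT, from 58.1 to 113 in Lep(ob/ob) and from 61.9 to 104 in CCKRi mice. These ratios were chosen after the values were seen and carry no test.

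Other genes of the β cell programme gave a mixed picture in Lep(ob/ob) against WT. Of 20 listed genes of β cell function, 19 were tested and 9 rose with none lower (median log2 fold change 1.29). Iapp, which encodes the amyloid peptide co-secreted with insulin, was at 2.81 (edgeR adjusted p = 0.00234), Ins1 at 2.27 (0.0087), the glucose-6-phosphatase gene G6pc2 at 2.10 (0.00993) and the oxidoreductase gene Ero1lb at −0.22 (0.629). Ins1 and Ins2 are near-identical, so reads may have been split between them. Of 18 other islet transcription factors 8 were tested and 4 rose (median 0.96), namely Etv1 (1.39, edgeR adjusted p = 0.00234), St18 (1.97, 0.00944), Myt1 (1.71, 0.0216) and Myt1l (1.29, 0.0289). Glis3 (0.40, 0.188) and Rfx3 (−0.31, 0.395) did not pass.

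Of 11 tested endodermal factors, which the exocrine pancreas shares (12 listed, median −0.13), Hnf4a was the 1 that rose (0.86, edgeR adjusted p = 0.0109). Gata4 (−0.45, 0.154) and Foxo1 (0.51, 0.117) did not pass. Ldb1 (0.18), the cofactor that binds the LIM domains of Isl1, and Ssbp2 (0.12) and Ssbp3 (−0.17), which bind Ldb1, were called in 0 of 3 cases by edgeR, and 0 of 3 had an unadjusted p under 0.05. All 7 pan-endocrine secretory genes rose, with log2 fold changes of 2.20 to 3.47. Of the other islet hormones, Ppy (2.59) and Pyy (2.38) rose, while Gcg (0.93, edgeR adjusted p = 0.216) and Sst (0.04) did not pass. Ttr, the other of the 2 α cell markers tested (4 listed), rose (1.55, edgeR adjusted p = 0.0119). The summed PP cell markers reached at most 154 normalised counts in WT and 1348 in Lep(ob/ob). The part of α, δ and PP cells in the members they share with β cells was not tested.

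The genes whose pattern was most like that of the 10 members were sought among 10857 others, by the correlation of residual log2 CPM (counts scaled to library size) with the members' mean after removing group and batch means. Over the 16 mice the highest included the sodium leak channel component Unc80 (r = 0.978), the secretory vesicle protein gene Cadps (0.976), Tmem27 (0.97) and the sulfonylurea receptor gene Abcc8 (0.969). Ins2 ranked 42.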

How the data were processed

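Raw counts per gene symbol, deposited for each of 16 whole-pancreas libraries, were tested. The deposited normalised values are a signal, the raw counts divided by 1 size factor per library (0.617 to 1.44), as DESeq2 gives. Per the labels, the authors used Trim Galore 0.6.7, cutadapt 3.5 and STAR 2.7.9 with mm10 on polyA RNA. The counter and its strand setting are not given in the sources used here. Groups and batch codes came from the labels. Here edgeR 4.0.16 (R 4.3.3, TMM, filterByExpr, glmQLFit and glmQLFTest) was run on all 16 mice with group and batch, with Benjamini-Hochberg adjustment over 13660 genes. The relative test used log Ins2 counts as offset, and permuted ratios had a pseudocount of 1. DESeq2 1.42.0 and other settings served as alternatives. The fits were tested on simulated data. Total counts of 9.87 M to 34.5 M leave Mnx1 at 1 to 3 counts in WT. Each mouse is 1 replicate; libraries of 1 group differed by more than sampling noise. Named genes were the members, Ins2, the 4 most abundant genes of each list, every called gene of a list with at most 5, and the 5 genes most like the members. Members and lists were chosen with earlier results of these data known. A few genes that this rule names are not reported here.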

Additional observations from a re-analysis of the deposited data

Results flagged for a closer look

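Within groups of 4 to 10 mice, values were put on the log2 scale. The distance of the highest or lowest mouse from its nearest neighbour was then divided by the group's range (Dixon's test, 95% critical value). Of 63 groups of values, 2 passed, both in WT mouse 59, and chance alone gives about 3.1. Nkx2-2 relative to Ins2 was 16.7 per 1000 Ins2 counts in this mouse against 5.73 to 7.74 in the other 4 WT mice (gap over range 0.72). Ins2 itself was lowest there, at 8549 normalised counts against 11522 to 12665 (0.759), so both values share the same Ins2 measurement. Its Nkx2-2 level was 143.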

How the results depend on the processing

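No paired analysis was possible because replicate numbers are mouse numbers and none is shared between groups. Of 1782 values of single genes under alternatives, 1559 kept direction and side of the threshold and 86 changed sign; causes were not tested. Members called in Lep(ob/ob) against WT numbered 9 without mice 417, 461, 463 and 69, 9 in batch A, 0 in batch B, 2 with the Ins2 covariate, and 2 to 6 with 1 mouse left out (2 without mouse 5489 or 5492, 3 without 5494). Counts of 9 in this paragraph include Mnx1, which entered through the obese mice. Shares of all genes called with 1 mouse left out, here and relative to Ins2 below, are not given. Those counts are therefore not read as particular to the members. In CCKRi against Lep(ob/ob) DESeq2 without batch called 1. In CCKRi against WT (share of all genes called in brackets) 9 were called without the 4 mice (9.64%), 3 in edgeR without batch (10.5%), 0 with only the groups compared (2.18%), 0 in batch B (0.0926%), 1 with the covariate (9.84%), 1 with proglumide mice alone (1.65%), 8 with lorglumide mice alone (5.34%) and 5 to 8 with 1 mouse left out (8 without mouse 69). Ins2 in batch B was 1.73 (Lep(ob/ob) against WT); in CCKRi against WT it was 2.47 with only the groups compared, 2.47 in batch B and 1.75 with proglumide alone, none of which passed.

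Relative to Ins2, Lep(ob/ob) against WT gave 8 by exact permutation, 8 in batch A (97.6% of all genes called), 0 in batch B (0%) and 5 to 7 with 1 mouse left out. CCKRi against WT gave 1 without filter (48.2%), 1 with at least 10 counts (80.7%), 1 in edgeR without batch (2.69%), 1 relative to Ins1 plus Ins2 (32.6%), 0 with only the groups compared (0.17%), 0 by permutation, 0 in batch B (0.114%), 0 with proglumide (0.187%), 4 with lorglumide (95.5%), 5 without the 4 mice (96.3%), 6 relative to Iapp (96.5%) and 0 to 5 with 1 mouse left out (5 without 69, 0 without 72 or 74).

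Signs changed as follows, as levels. With the Ins2 covariate, Lep(ob/ob) against WT was −1.44 for Mafa, −1.12 Mnx1, −1.17 Neurod1, −0.72 Nkx2-2, −0.18 Nkx6-1, −0.49 Pax6, −0.83 Pdx1 and −0.25 Rfx6, and CCKRi against WT −2.09 Mafa, −0.91 Mnx1, −0.55 Neurod1, −0.33 Nkx2-2 and −0.67 Pdx1. In batch B, Lep(ob/ob) against WT was −0.26 Mafa, −0.23 Neurod1, −0.19 Nkx2-2 and −0.19 Pdx1, and CCKRi against WT −0.34 Mafa. Without batch (DESeq2; edgeR), CCKRi against Lep(ob/ob) was −0.40 and −0.39 Ins2, −0.61 and −0.61 Insm1, −0.28 and −0.28 Mnx1, −0.31 and −0.30 Nkx6-1, and −0.35 and −0.34 Pdx1, and Mafa against WT −0.89 and −0.90. Proglumide alone gave −0.75 Ins2, −0.32 Insm1, −0.42 Mnx1, −0.23 Neurod1, −0.064 Nkx2-2, −0.17 Nkx6-1 and −0.28 Pdx1 against Lep(ob/ob), and −1.05 Mafa against WT. Lorglumide alone gave 0.25 Mafa against Lep(ob/ob). With only the groups compared, Mafa against WT was −0.35. With 1 mouse left out, CCKRi against Lep(ob/ob) ran from −0.084 to 0.53 for Pdx1 and −0.29 to 0.73 for Ins2, and against WT from −0.60 to 0.43 for Mafa.

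Relative to a reference, CCKRi against WT changed sign for Insm1 and Pax6 with pan-endocrine genes (−0.16 and −0.19), with Iapp (−1.35 and −1.27, Rfx6 −0.61), without the 4 mice (−0.24 and −0.24) and with lorglumide alone (−0.18 and −0.13, Mnx1 0.058). Without batch, Insm1 was −0.44 (DESeq2) and −0.41 (edgeR) and Isl1 0.091 and 0.093. Pax6 was −0.18 in batch B, −0.18 with only the groups compared and −0.28 by permutation. Against Lep(ob/ob), Iapp as reference gave −0.47 Insm1, −0.52 Isl1, −0.56 Mnx1, −0.37 Neurod1, −0.52 Nkx2-2, −0.62 Nkx6-1, −0.14 Pax6 and −0.85 Pdx1, and lorglumide alone −0.086 Isl1, −0.064 Nkx2-2 and −0.36 Pdx1. In batch A, Lep(ob/ob) against WT was 0.17 Mnx1 and 0.11 Rfx6. With 1 mouse left out, Mnx1 ran from −0.65 to 0.10 in Lep(ob/ob) against WT, −0.091 to 0.48 in CCKRi against Lep(ob/ob) and −0.33 to 0.58 against WT, Pdx1 from −0.19 to 0.50 against Lep(ob/ob), and Pax6 from −0.12 to 0.24 and Insm1 from −0.32 to 0.22 against WT.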
